A study of Homo sapiens with 6 samples.

Results

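Binding of MYC at the starts of 5 polyamine genes was examined: ODC1, SRM and AMD1, which make polyamines, and OAZ1 and AZIN1, which control the breakdown of ornithine decarboxylase. The genes were chosen by name, and a MYC peak was given to a gene when its summit lay within 5 kb of the gene start in hg19. In all, 22 peaks met this rule, 7 of 24899 in replicate 1, 6 of 16809 in replicate 2 and 9 of 17298 in replicate 3. The peaks come from chromatin immunoprecipitation followed by sequencing (ChIP-seq) of ONS76, an established human medulloblastoma cell line. The cells of all 6 libraries carried a construct for inducible SOX2, per the labels. The study's methods for ChIP-seq name ONS76 cells and do not mention this construct. SOX2 was not elevated for the ChIP-seq, according to the study. The labels name 3 libraries made with the MYC antibody Y69 and 3 made with normal IgG, a non-specific antibody, and a peak list for each MYC library was used. Separate immunoprecipitations of a single batch of chromatin were pooled per the study's methods, so the SD below is the spread between 3 libraries and may be technical.

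Polyamines (putrescine, spermidine and spermine) are small cations that bind nucleic acids and are needed for growth and translation. Ornithine decarboxylase, encoded by ODC1, makes putrescine and is a textbook target of MYC. S-adenosylmethionine decarboxylase, encoded by AMD1, supplies the aminopropyl donor, and spermidine synthase, encoded by SRM, joins both products into spermidine. Antizyme, encoded by OAZ1, binds ornithine decarboxylase and sends it to the proteasome. Antizyme inhibitor, encoded by AZIN1, resembles ornithine decarboxylase but lacks its activity, and it releases the enzyme by binding antizyme. MYC binds DNA together with MAX, preferentially at the E-box CACGTG.

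Promoter sequences of 4 of the 5 genes were found in a RefSeq table of GRCh38.p14, which gives 250 bases before and 50 bases after each start. AZIN1 was not in the table. The canonical E-box CACGTG was found for SRM and ODC1, in 2 of the 7 promoters of these 4 genes, against 7.26% of all 35116 promoters in the table. The stretches that hold it are printed 5′ to 3′ on the strand of the gene with CACGTG in capitals, because the MYC summits of SRM and ODC1 lay at a like distance from the start. The SRM stretch is chr1:11060021-11060268 (minus strand), upstream of the gene and outside annotated exons. The first ODC1 stretch is chr2:10448015-10448120 (minus strand), which lies in an intron of 3 of the 6 GENCODE transcripts and in no annotated exon. The second ODC1 stretch is chr2:10447990-10448019 (minus strand), which overlaps an exon of 2 of the 6 transcripts.
SRM, upstream: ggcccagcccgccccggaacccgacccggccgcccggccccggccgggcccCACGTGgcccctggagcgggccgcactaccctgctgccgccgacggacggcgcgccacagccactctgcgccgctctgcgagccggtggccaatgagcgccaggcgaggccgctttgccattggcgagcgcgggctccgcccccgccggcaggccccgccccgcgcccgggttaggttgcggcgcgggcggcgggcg
ODC1, intron: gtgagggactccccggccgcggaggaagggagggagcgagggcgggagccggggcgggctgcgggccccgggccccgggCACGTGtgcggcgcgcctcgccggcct
ODC1, second E-box: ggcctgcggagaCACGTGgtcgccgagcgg
In SRM the E-box covered bases 199 to 194 before the RefSeq start. In ODC1 both E-boxes came from the promoter of a second RefSeq start, which lies 315 bp downstream of the first, and they began 286 bp and 320 bp downstream of the first start. No CACGTG was found in the promoters of AMD1 or OAZ1.

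Both strands were also searched for related motifs and for core promoter elements. CACGCG was found in 1 of the 7 promoters (11.4% of all promoters), upstream of ODC1, where the letters overlap their own reverse complement. CACGAG was found in 1 of 7 (6.78%), 47 to 42 bases before the OAZ1 start. CATGTG (11.1%) and CACCTG (20.6%) were found in none of the 7. The GC box GGGCGG was found in 7 of 7 (45% of all promoters). The AMD1 promoters that start 60168 bp and 60167 bp downstream of its most upstream start cover nearly the same bases. Their GC box is the same site, so the 7 promoters are not all distinct. TATAAA was found in 1 of 7 (11.5%), at OAZ1, where it covered bases 7 to 12 after the RefSeq start. Only these exact letters were searched, so TATA-like letters that differ from them were not counted. The OAZ1 distances are from the RefSeq start, and whether it is the hg19 start used for the summits was not tested. Among 15 other genes of polyamine and hypusine metabolism, such as SMS (spermine synthase) and SAT1 (spermidine/spermine acetyltransferase), 12 were in the table with 21 promoters. CACGTG was found in 1 of these 21, at DOHH, a hydroxylase of hypusine synthesis. These matches describe letters in short windows, not sites of binding.

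MYC peaks were present at all 5 genes in each of the 3 replicates. For comparison, windows of 10 kb were tiled over each chromosome from its first to its last summit, 294870 in all. A summit was found in 7.1%, 4.89% and 4.99% of these windows in replicates 1, 2 and 3, and in all 3 replicates in 3.88%. These windows are not gene starts, and the share of all gene starts with a peak was not computed because no hg19 annotation was used here. Overlapping peaks of the 3 lists were merged into places. The strongest peak of each gene, by p-value, lay in 1 place found in all 3 replicates. Of all 27801 places, weak ones included, 45% were found in all 3. The share was 52.3% of 22125 places with equal numbers of the strongest peaks from each list. The share among places of like strength was not computed. Of the 22 summits, 21 lay within 1 kb of the gene start. The farthest, at 1442 bp, was a weak second OAZ1 peak.

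**Figure D1:**
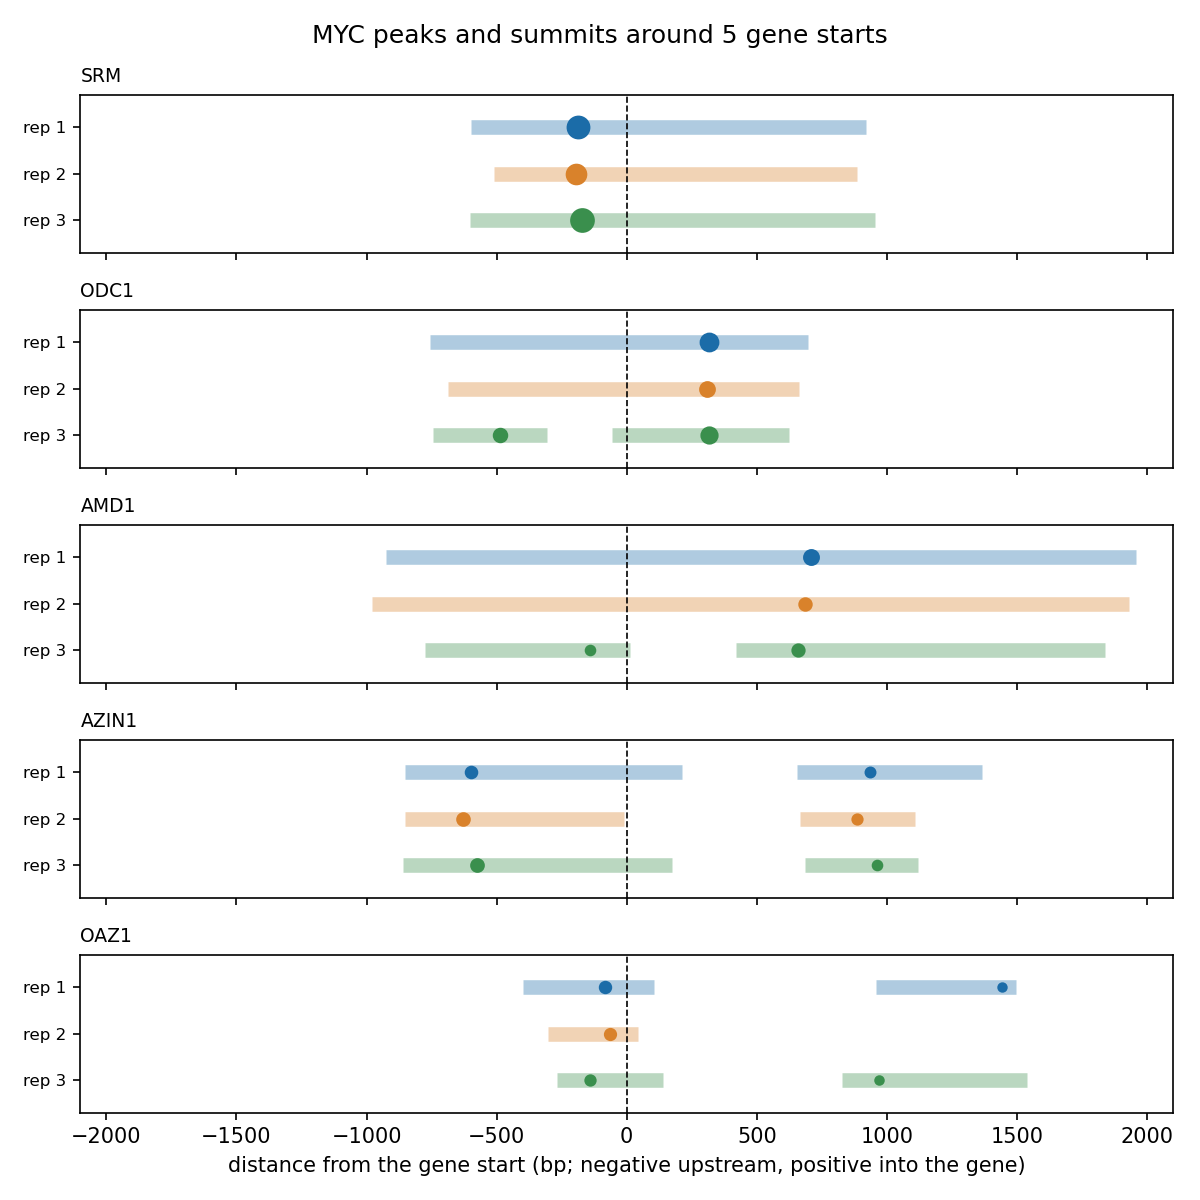
Peaks (bars) and summits (dots, larger with higher fold enrichment) around the 5 gene starts, by replicate; the x axis is the distance from the gene start in bp, negative upstream and positive into the gene. The SRM summits lie 171 to 196 bp upstream, the ODC1 summits of the strongest peaks 308 to 318 bp into the gene, and AZIN1 has a peak on either side of its start in each replicate.

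The position of the strongest summit differed between genes and was close between replicates. At ODC1 the summits lay 315 bp, 308 bp and 318 bp into the gene in replicates 1, 2 and 3, a spread of 10 bp. In GRCh38 both E-boxes of the printed ODC1 stretches lie at about this distance from the first RefSeq start. At SRM the summits lay 188 bp, 196 bp and 171 bp upstream, beside an E-box 199 to 194 bases upstream in GRCh38. Each distance was measured within its own build, no position was carried between builds, and the identity of the hg19 and RefSeq starts was not tested. At AMD1 the summits lay 707 bp, 685 bp and 659 bp into the gene, beyond the 50 bases covered by the promoter table. At OAZ1 they lay closest to the start, at 85 bp, 65 bp and 141 bp upstream, and at AZIN1 599 bp, 628 bp and 577 bp upstream.

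The number and width of peaks also varied. AZIN1 had 2 peaks in each replicate, with the second summit 934 bp, 886 bp and 961 bp into the gene. Its second peak was weaker than the first in 3 of 3 replicates, with a fold enrichment of 5.17, 5.61 and 4.70. Among the 10 kb windows with a summit, 15.5%, 13.8% and 14.5% held at least 2 in replicates 1, 2 and 3. OAZ1 had a second peak in replicates 1 and 3, with a fold enrichment of 2.96 and 3.13. At ODC1 and AMD1 a single wide peak in replicates 1 and 2 was called as 2 peaks in replicate 3. The upstream summit of ODC1 in replicate 3 lay 486 bp from the start with a fold enrichment of 10.2, and that of AMD1 lay 143 bp upstream with 4.69. SRM had 1 peak in each replicate.

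The AMD1 place was the widest of the 5, at 2938 bp, and 99.8% of the 12499 places found in all 3 replicates were narrower. The median width of these places was 792 bp. The SRM place spanned 1557 bp, the ODC1 place 1453 bp and the AZIN1 place 1073 bp. The OAZ1 place, at 541 bp, was narrower than this median, and 21.3% of the places were narrower still.

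Peak strength was compared by fold enrichment, the number of DNA fragments at the summit over the local background, as MACS2 gave it with 1 added to both. At SRM fold enrichment was 22.3, 19.2 and 23.6 in replicates 1, 2 and 3, a mean of 21.7 ± 2.28 (SD, n = 3). These values were the highest of the 5 genes in each replicate. At ODC1 it was 16.5, 12.1 and 14.2, a mean of 14.3 ± 2.18 (SD, n = 3). ODC1 ranked second in each replicate and did not overlap SRM. At AMD1 it was 12.3 in replicate 1 but 8.77 and 8.51 in replicates 2 and 3, a mean of 9.87 ± 2.12 (SD, n = 3). AMD1 varied most for its level, with an SD of 21.5% of the mean.

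Of the antizyme pair, AZIN1 had a fold enrichment of 7.50, 9.05 and 9.18, a mean of 8.57 ± 0.931 (SD, n = 3). OAZ1 had 7.28, 7.02 and 5.73, a mean of 6.68 ± 0.830 (SD, n = 3). OAZ1 was the lowest of the 5 genes in each replicate. It was 0.971 times AZIN1 in replicate 1 and 0.625 times AZIN1 in replicate 3. The highest value of OAZ1 was below the lowest of AZIN1 by less than the SD of either gene.

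**Figure D2:**
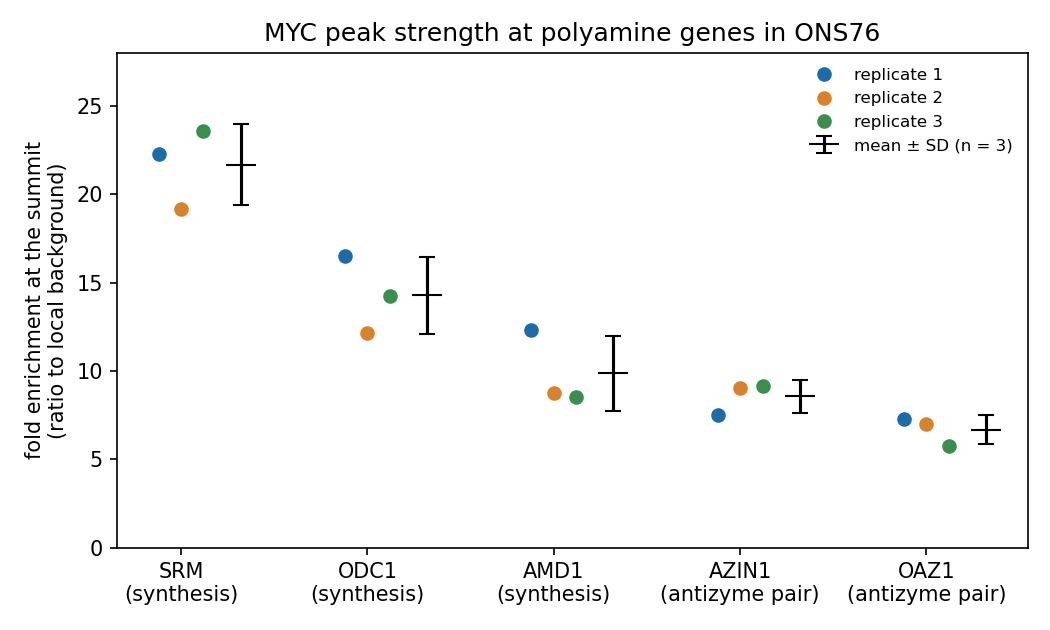
Fold enrichment at the summit of the strongest peak of each gene; dots are the 3 replicates, and black bars are the mean ± SD (n = 3). SRM lies above ODC1 in every replicate, while the values of AMD1 (8.51 to 12.3) and AZIN1 (7.50 to 9.18) overlap.

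The order SRM, ODC1, then the other 3 genes was the same in all replicates. Of the 10 pairs of genes, 9 had the same order in 3 of 3 replicates. The exception was AMD1 and AZIN1, in which AMD1 was higher in 1 of 3 replicates, with a ratio of 1.64 in replicate 1 and 0.928 in replicate 3. The mean log2 ratio of this pair was 0.19 ± 0.46 (SD, n = 3), less than its spread. In contrast, ODC1 had 0.604 to 0.740 times the fold enrichment of SRM, and SRM had 1.81 to 2.77 times that of AMD1.

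The fragments behind these values were solved from the fold enrichment and p-value of each peak. At SRM the summit held 220, 132 and 138 fragments, and at ODC1 144, 82 and 81. At AMD1 it held 114, 59 and 48 fragments, at AZIN1 89, 74 and 62, and at OAZ1 63, 47 and 32. Replicate 1 held the most fragments at each gene and also had the highest genome-wide background, 7.79 fragments against 5.84 and 4.76. Read numbers were not used, so the depth of the libraries was not measured. The 95% exact Poisson intervals that follow cover counting error alone. Fragments divided by local background, with nothing added, were 13.7 at AMD1 in replicate 1 (interval 11.3 to 16.4), above 8.09 at AZIN1 (6.50 to 9.96). In replicate 2 the values were 10.1 (7.69 to 13.0) at AMD1 and 10.2 (7.97 to 12.7) at AZIN1. In replicate 3 they were 10.1 (7.44 to 13.4) and 10.6 (8.10 to 13.5). Thus the intervals of AMD1 and AZIN1 were apart in replicate 1, while in replicates 2 and 3 they overlapped, with AZIN1 slightly higher. These intervals take the local background as exact. For the summit fragments alone, the intervals of replicate 1 overlapped, at 94.0 to 137 for AMD1 and 71.5 to 110 for AZIN1.

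**Figure D3:**
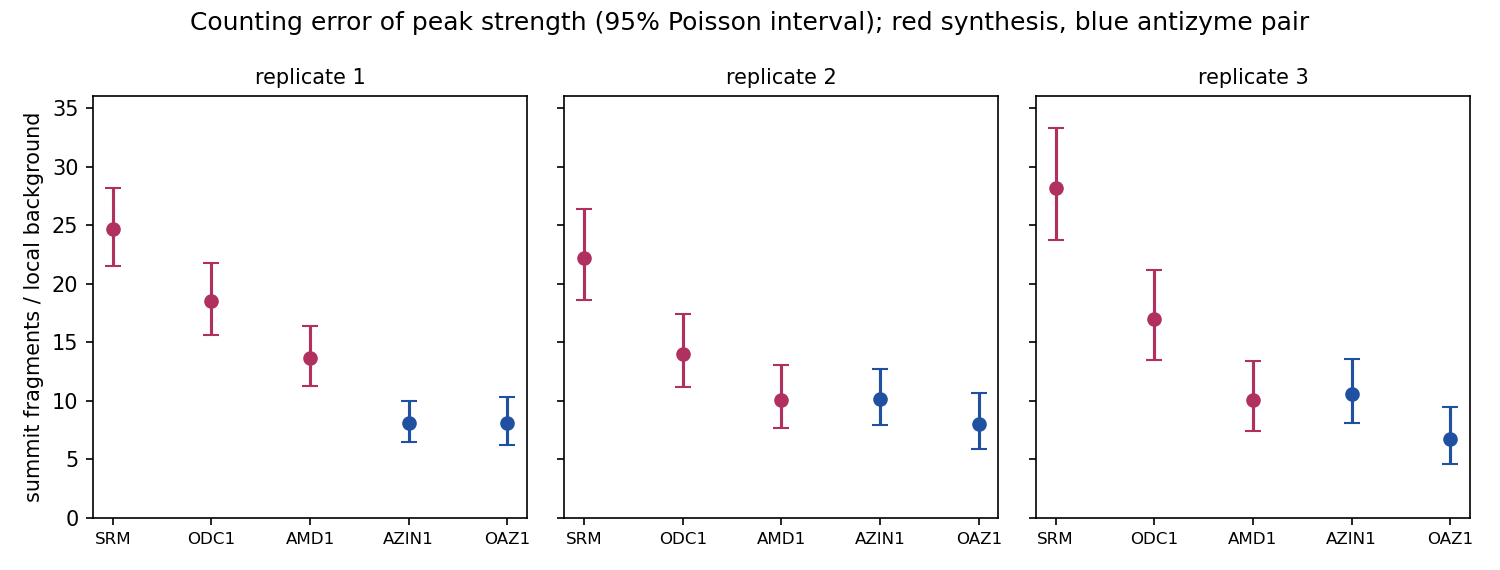
Fragments at the summit divided by the local background, with nothing added, for the strongest peak of each gene in each replicate; error bars are 95% exact Poisson intervals of the fragment number. SRM (24.7, 22.2 and 28.2) is highest in each panel, and the intervals of AMD1 and AZIN1 are apart only in replicate 1.

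The local background of MACS2 is taken from reads around the peak and cannot fall below a genome-wide level. MACS2 takes these reads from a control library where one is given and otherwise from the same library, and the sources used here do not say which was done. At ODC1 and OAZ1 it was at the genome-wide level in all 3 replicates, so the ratio of these genes within a replicate is set by their summit fragments alone. At AMD1 it was at this level in replicates 2 and 3 and 1.07 times as high in replicate 1, and at SRM it was 1.14, 1.02 and 1.03 times as high. AZIN1 stood apart, at 1.41, 1.25 and 1.23 times the genome-wide level, and its second peak at 1.86, 1.26 and 1.22 times. Whether reads of the neighbouring MYC peak enter this background was not tested. Over the genome-wide level, AZIN1 had 11.4, 12.7 and 13.0 and AMD1 14.6, 10.1 and 10.1. On this scale the mean of AZIN1, 12.4 ± 0.841, was above that of AMD1, 11.6 ± 2.62 (SD, n = 3), by less than the spread of AMD1.

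The question set for these genes was how binding at the synthesis genes compared with the antizyme pair. The mean log2 fold enrichment of ODC1, SRM and AMD1 was 4.05, 3.66 and 3.83 in replicates 1, 2 and 3, and that of OAZ1 and AZIN1 was 2.89, 2.99 and 2.86. The difference was 1.16, 0.67 and 0.97, a mean of 0.93 ± 0.25 (SD, n = 3), which corresponds to 1.91-fold higher enrichment at the synthesis genes. The synthesis genes were higher in 3 of 3 replicates. By an exact sign test (two-sided) p was 0.25, the smallest value possible with 3 replicates. The groups were fully apart only in replicate 1, where the lowest synthesis gene had 12.3 and the highest of the antizyme pair 7.50. In replicates 2 and 3 AMD1 was below AZIN1. SRM contributed most: without it the difference was 0.64 ± 0.29, without ODC1 0.94 ± 0.23 and without AMD1 1.22 ± 0.24 (SD, n = 3). The 5 genes are not replicates, so no test was made across them.

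Within each list, the strongest peaks of the 5 genes were ranked among all peaks. At SRM 99.4%, 99.2% and 99.5% of the peaks had a lower fold enrichment in replicates 1, 2 and 3. At ODC1 the shares were 98.3%, 95.8% and 96.8%, and at AMD1 95.7%, 89.7% and 86.3%. At AZIN1 they were 84.6%, 90.5% and 88.8%, and at OAZ1 83.4%, 81.4% and 65.4%. All 15 peaks, from 5 genes in 3 replicates, were above the median of their list, which was 4.15, 4.49 and 4.78. The lists hold every peak, and the second peaks of the genes lay on either side of the median. No ranking among peaks at gene starts was made. Among the 12499 places found in all 3 replicates, ranked by geometric mean fold enrichment, SRM was at rank 121, ODC1 at 533, AMD1 at 1538, AZIN1 at 2188 and OAZ1 at 4010. The median of these places was 5.40, and OAZ1, at 6.64, was above 67.9% of them.

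**Figure D4:**
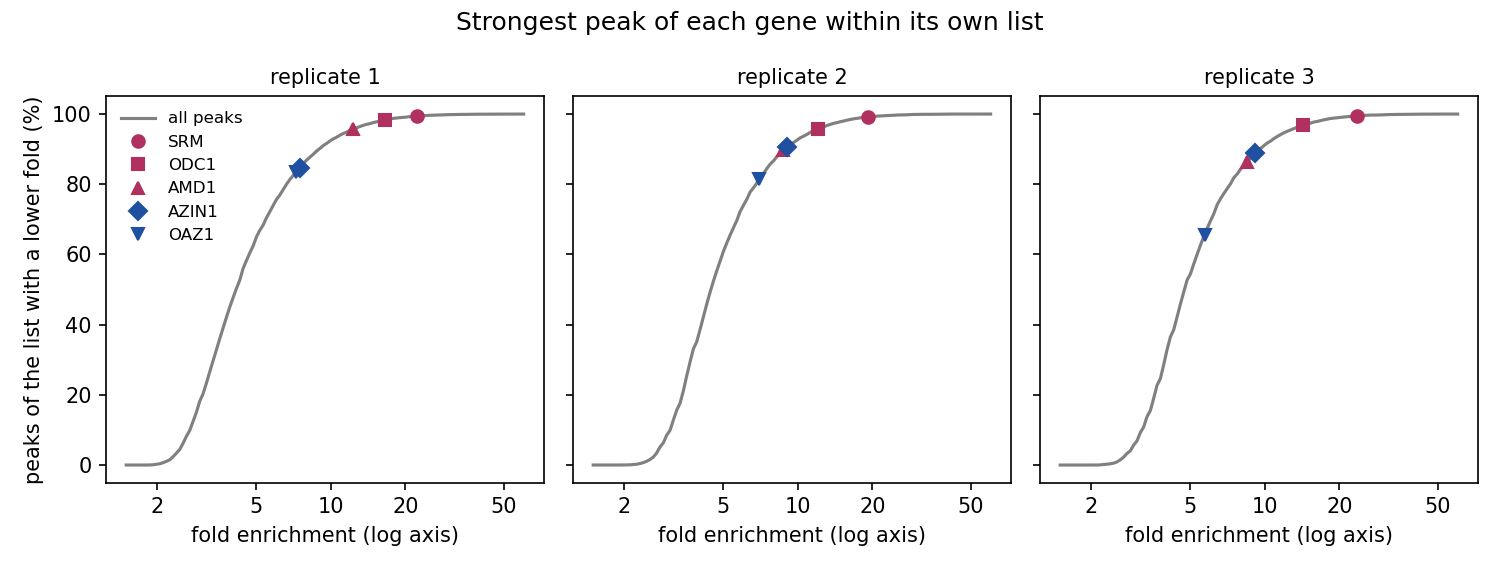
Share of the peaks of each list with a lower fold enrichment (y axis, %) against fold enrichment (x axis, log scale); the grey line is all peaks, red symbols are synthesis genes and blue symbols the antizyme pair. SRM lies above 99.2% or more of the peaks in every replicate, and OAZ1 ranges from 65.4% to 83.4%.

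The significance that MACS2 gave each peak had the same leading genes. It follows from the same summit fragments and local background as fold enrichment, so it is not separate evidence. The −log10 p was 218, 126 and 145 at SRM and 126, 63.5 and 69.2 at ODC1. It was 86.1, 38.4 and 31.6 at AMD1, 49.2, 47.8 and 41.4 at AZIN1, and 35.4, 26.8 and 16.6 at OAZ1. AMD1 was above AZIN1 in replicate 1 and below it in replicates 2 and 3, as for fold enrichment. The weakest of the 22 peaks was the second OAZ1 peak of replicate 3, with a −log10 q of 2.88 and 17 fragments at its summit.

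Beyond the window of 5 kb, the nearest summit was 33.3 kb to 145 kb away from the gene starts. For OAZ1 it lay 33.3 kb upstream in 3 of 3 replicates, with a fold enrichment of 14.6, 11.5 and 8.91, above OAZ1 itself in each. For AMD1 it lay 59.3 kb, 59.4 kb and 59.3 kb upstream, with 6.26, 3.95 and 5.38. For ODC1 it lay 39.1 kb, 39.2 kb and 145 kb away in the direction of the gene, for SRM 39.9 kb, 46.9 kb and 39.4 kb away, and for AZIN1 38.8 kb, 53.2 kb and 38.8 kb away. Other genes share the windows around the starts. RefSeq (GRCh38.p14) places ODC1-DT, a divergent noncoding transcript, and the small nucleolar RNA gene SNORA80B within 5 kb of the ODC1 start. It places the noncoding genes LOC105372240 near OAZ1 and MAILR near AZIN1, and no other gene near SRM. A summit near such a start cannot be assigned to either gene from its position.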

How the data were processed

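MYC was measured by ChIP-seq in 3 libraries of ONS76 cells; the 3 IgG libraries were not analysed here. The authors aligned reads to hg19 with Bowtie2 and called peaks per library with MACS2 at a q-value of 0.05, as the study's methods state. The sources used here give no versions, control library or duplicate handling. The deposited values are a fold enrichment (a ratio), a −log10 p-value, a −log10 q-value, a score equal to the integer part of 10 times the latter, and positions; they are not scaled between libraries. The lists are not in hg38, since 715 peaks lie past the chromosome ends of that build. hg19 gene starts were those fixed with the gene list, and positions are counted from 1.

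The strongest peak of a gene was the one with the highest −log10 p within 5 kb. Summit fragments and local background were solved from fold and −log10 p (100% of peaks matched a whole number within 0.001; checked on simulated data). Peaks overlapping by 1 bp were merged into places. The 5 genes, the lists of pathway genes and the tests were chosen with earlier results of these data known. The named genes are all 5 members. Analyses used Python 3.11.15, pandas 2.3.3 and scipy 1.17.1.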

Additional observations from a re-analysis of the deposited data

How the results depend on the processing

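All 5 genes kept a peak in every replicate with windows of 1 kb and 10 kb and with q-values of at most 0.01 and 0.001, and their strongest peaks were the same. The mean log2 fold enrichment over the 5 genes moved from 3.47 to 3.67 with nothing added to fragments and background, and to 3.77 over the genome-wide background, since both change how the ratio is formed; the other 8 alternatives stayed within 1 SD. The mean of the synthesis genes was above that of the antizyme pair with the peak nearest to the start, with nothing added and over the genome-wide background. The windows and q-values kept the same strongest peaks, so they could not change this direction. Leaving out a replicate could not change it either, since the difference was positive in each replicate. AMD1 alone was below AZIN1 on average without replicate 1 (8.64 against 9.11) and over the genome-wide background (11.6 against 12.4). With the peak nearest to the start, the mean of AMD1 was 8.59 against 8.57 at AZIN1. In replicate 3 that AMD1 peak, at 4.69, was also below OAZ1, at 5.73. Hence 8 of the 10 pairs of genes kept the same order in every replicate, and OAZ1 was not the lowest in replicate 3. The log2 difference was 0.93 as reported, 0.84 with the peak nearest to the start, 0.96 with nothing added, 0.82 over the genome-wide background and 0.82 (without replicate 1) to 1.07 (without replicate 2) with a replicate left out. None of these can pass a sign test at this number of replicates. The place of AMD1 was no longer shared by all replicates when a reciprocal overlap of 50% was asked for, which left 4 of 5 genes, because its wide peak was split in replicate 3. All 5 genes kept their shared place with summits at most 200 bp apart, with equal numbers of the strongest peaks and without each replicate. No paired analysis was possible because peaks of the MYC libraries alone were used, so that the replicate numbers shared with IgG pair no values. The second OAZ1 peaks held 25 fragments in replicate 1 and 17 in replicate 3, and replicate 2 had no second peak there. Whether depth limits the calling of such weak peaks was not tested.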

Other observations

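Fold enrichment in one replicate divided by that in another was set beside all places called in both, as a description chosen after the values were seen. The value of replicate 1 divided by that of replicate 3 was 1.45 at AMD1, which was higher in replicate 1, above 91.3% of 14955 places with a median of 1.04. At AZIN1, which was lower in replicate 1, it was 0.818, above 16.8% of these places. Replicate 1 divided by replicate 2 gave 1.40 at AMD1 and 0.829 at AZIN1, above 82.6% and 11.9% of 14598 places with a median of 1.13. Replicate 2 divided by replicate 3 gave 1.03 and 0.986, both above the median of 0.926, so AMD1 and AZIN1 lay on opposite sides of the median only in the pairs with replicate 1. ODC1 gave 1.36, 1.16 and 0.852 for the pairs 1 and 2, 1 and 3, and 2 and 3, above 78.6%, 66.9% and 34.9% of the places. SRM gave 1.16, 0.945 and 0.812, above 54.9%, 34.8% and 26.9%. OAZ1 gave 1.04, 1.27 and 1.22, above 37.5%, 79.4% and 90.2%.

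AMD1 has 3 promoters in the RefSeq table. One starts 60168 bp and 60167 bp upstream of the others in GRCh38, and the protein-coding gene CDK19 lies within 5 kb of it. The others cover nearly the same bases. In hg19, the MYC summits next nearest to AMD1 lay 59.3 kb to 59.4 kb upstream of the start used here. Whether these summits are at the upstream start of AMD1, at CDK19 or elsewhere was not tested.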
